A study of Mus musculus with 4 samples.

Results

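Mature neutrophils in the spleens of lymphoma-bearing mice were taken as cell barcodes that carried RNA of receptors and stefins of the late neutrophil and little RNA of the granule stage before it. A barcode was counted when it had 300 to 3000 detected genes, at least 3 unique molecular identifiers (UMIs, each a counted RNA molecule) summed over Cxcr2, Csf3r, Stfa2l1, Gm5483, BC100530 and Retnlg with at least 2 of these genes detected, and fewer than 10 UMIs of Camp, Ngp and Ltf. This rule found 79 cells among 1770 barcodes with 300 to 3000 genes. The cells came from Drop-seq, which tags the RNA of single cells in droplets, run on dissociated spleens of BALB/c mice that had received 10000 BCL1 cells, a B-cell lymphoma of that strain, on day 0. Of the 4 libraries, 1 came from the combination of anti-CD27, given from day 5 to day 8, with anti-CD20, given on day 4 (46 mature neutrophils), 1 from anti-CD27 alone (24), 1 from anti-CD20 alone (5) and 1 from isotype control antibody (4). All spleens carried lymphoma and were harvested on day 13, so no library shows a spleen without tumour. The days are those of the sample labels, and the study's methods for the tumour models give the same antibody days. Its methods for single-cell sequencing place the antibodies earlier. The number of mice behind each library is not given in the sources used here.

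Neutrophils are short-lived phagocytes that mature in the bone marrow, and in the spleen when blood formation takes place there. Their precursors make the secondary granule proteins (Camp, Ngp, Ltf, Lcn2), and as the cells mature these transcripts are lost while the chemokine receptor Cxcr2, the G-CSF receptor Csf3r and, in mice, the stefins and Retnlg are gained. Throughout, neutrophils carry large amounts of S100a8 and S100a9, which together form the antimicrobial protein calprotectin, and they respond to interferons by inducing antiviral proteins, guanylate-binding proteins and MHC class I.

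The label was checked against genes that the rule did not use. S100a9 had a UMI in 78 of 79 cells, S100a8 in 77 and the cytokine gene Il1b in 73. In B cells of the same libraries S100a9 was found in 27.8% of 575 barcodes (median depth 956 UMIs in mature neutrophils and 1312 UMIs in B cells) and Il1b in 1.39%. After thinning each cell to 400 UMIs, S100a9 was found in 96.2% of the mature neutrophils and 10.3% of the B cells. S100a8 in B cells differed by library, with 48.3% of barcodes in anti-CD27 and 17.4% in anti-CD20, so that a few UMIs of these genes are also found outside neutrophils. Of the genes of the rule, Cxcr2 and Csf3r had a UMI in 70 cells each, Retnlg in 53, Stfa2l1 in 44, Gm5483 in 31 and BC100530 in 30, and the 79 cells held between 53.4% (Retnlg) and 83.4% (Stfa2l1) of all UMIs of each gene in the barcodes kept. They held 0.126% of those of Camp, 0.213% of Ngp and 0.142% of Ltf, and 52 of the 79 cells had no UMI of the 3 granule genes. These values follow from the rule and are given as a description. At its edges stood 3 members with exactly 3 UMIs of the rule and 6 with 4 or 5. Just outside were 2 barcodes with 2 UMIs of 2 genes, 6 barcodes with 3 or more UMIs of 1 gene only, and 1 barcode that carried the rule genes with 10 to 14 granule UMIs. In all, 25 barcodes carried the rule genes but had 10 or more granule UMIs.

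The 79 cells held 93339 UMIs, of which 51920 came from the combination, 33087 from anti-CD27, 3784 from anti-CD20 and 4548 from the isotype control. A cell had 466 to 6392 UMIs, and its median was 969.5 in the combination, 1075 in anti-CD27, 792 in anti-CD20 and 879.5 in the isotype control. Among marker lists of other classes, the 8 monocyte genes had the most UMIs, 256 in all, with 3 or more UMIs in 31 of the 79 cells (24 of 46 in the combination, 6 of 24 in anti-CD27, 0 of 5 in anti-CD20 and 1 of 4 in the isotype control). Of these UMIs 175 were of Ly6c2 and 49 of Ctss. The 79 cells held 66 UMIs of 10 T cell genes, 40 of 9 B cell genes, 44 of 8 macrophage genes, 1 of 6 natural killer genes, 1 of the eosinophil genes and 0 of the platelet genes. Vcam1, 1 of the 8 macrophage genes, and the T cell list in the isotype control were at 0. Of the macrophage list, 3 cells of the combination had 3 or more UMIs. By library, the T cell list summed to 424, 1300, 264 and 0 counts per 1000000 UMIs of the class (CPM) and the B cell list to 116, 393, 1321 and 3518 CPM in the combination, anti-CD27, anti-CD20 and the isotype control. In all 4 libraries together, 8 barcode sequences occurred in more than 1 library, and 0 of them belonged to a mature neutrophil.

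A few barcodes stood apart. The deepest, in anti-CD27, had 6392 UMIs and 2447 genes, 42 UMIs of the T cell list (26 of Trbc2), 66 UMIs of the proliferation list, 1 UMI of S100a9 and none of S100a8, Cxcr2 or Csf3r, and it made up 19.3% of the mature neutrophil UMIs of its library. Another in anti-CD27 had 59.7% haemoglobin UMIs together with 107 UMIs of S100a8 and 7 of Cxcr2. The deepest barcode of the isotype control held 47.2% of the mature neutrophil UMIs there and 16 UMIs of the B cell list. In all, 9 of the 79 cells had 3 or more UMIs of the B, T, macrophage or erythroid lists. Without these 9, the shares of mature neutrophils were 9.26% in the combination, 4.43% in anti-CD27, 0.998% in anti-CD20 and 0.882% in the isotype control.

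Mature neutrophils were most frequent where anti-CD27 had been given. They were 46 of 432 barcodes in the combination, or 10.6% (95% Clopper-Pearson interval 7.90 to 13.9%), and 24 of 497 in anti-CD27, or 4.83% (3.12 to 7.10%). They were 5 of 501 in anti-CD20, or 0.998% (0.325 to 2.31%), and 4 of 340 in the isotype control, or 1.18% (0.321 to 2.98%). The combination exceeded anti-CD20 by 9.65 percentage points (Newcombe interval 6.76 to 13.0), and anti-CD27 exceeded the isotype control by 3.65 points (1.26 to 6.02). The combination exceeded anti-CD27 by 5.82 points (2.40 to 9.44), and anti-CD20 differed from the isotype control by -0.18 points (-2.08 to 1.32). Both libraries with anti-CD27 lay above both without. An exact permutation test of 2 against 2 libraries gave a two-sided p of 0.333, the smallest it can give, and the intervals cover counting error only.

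These shares depend on how many other cells each spleen gave. B cells were 2 barcodes in the combination, 172 in anti-CD27, 213 in anti-CD20 and 188 in the isotype control. Among barcodes without B cell markers, mature neutrophils were 11.03% in the combination, 9.02% in anti-CD27, 2.14% in anti-CD20 and 3.92% in the isotype control. On this count the combination still exceeded anti-CD20 by 8.89 points (5.06 to 12.5). The interval of anti-CD27 minus the isotype control then reached below 0 (5.10 points, -1.31 to 9.80), as did that of the combination minus anti-CD27 (2.01 points, -2.84 to 6.44). Immature neutrophils, defined by 10 or more UMIs of Camp, Ngp and Ltf, numbered 28 in the combination, 27 in anti-CD27, 3 in anti-CD20 and 5 in the isotype control. Mature cells were thus 62.2%, 47.1%, 62.5% and 44.4% of all neutrophils in those libraries, with intervals that overlapped throughout.

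**Figure D1:**
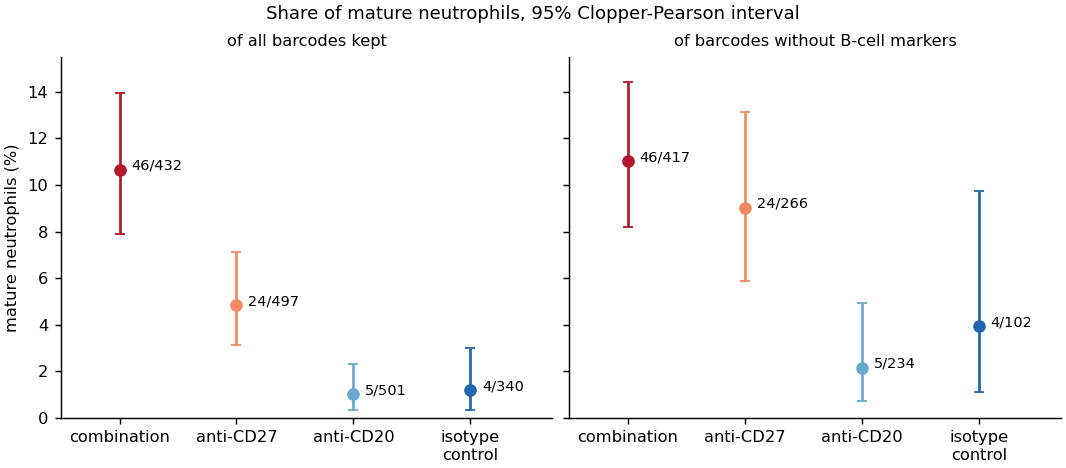
Mature neutrophils as a percentage of all barcodes kept (left) and of barcodes without B cell markers (right), by library, with 95% Clopper-Pearson intervals and the cell counts beside each point. The combination and anti-CD27 lie above anti-CD20 and the isotype control in both panels, and the combination and anti-CD27 lie closer (11.03% and 9.02%) when B cells are left out.

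The 2 calprotectin genes led the transcriptome. S100a9 stood at 71418 CPM in the combination and 67519 in anti-CD27, against 47833 in anti-CD20 and 30343 in the isotype control. S100a8 stood at 65813 and 67066 CPM in the libraries with anti-CD27, against 33562 and 30783 in anti-CD20 and the isotype control. Both genes were higher in each library with anti-CD27 than in either without. Actb, cytoplasmic actin, was at 15620, 14900, 16120 and 12533 CPM in the combination, anti-CD27, anti-CD20 and the isotype control. In this class Il1b, the gene of interleukin-1 beta, was at 5990 and 4141 CPM in the combination and anti-CD27, and at 3964 and 6157 in anti-CD20 and the isotype control. Its libraries overlapped, and the pooled level with anti-CD27 was 1.02 times that without (95% interval 0.75 to 1.43). Of all Il1b UMIs in the barcodes kept, 66.7% were in these 79 cells.

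The cells differed widely among themselves. S100a8 and S100a9 made up 0.0156 to 31.5% of a cell's UMIs, with medians of 12.6% in the combination, 15.6% in anti-CD27, 5.83% in anti-CD20 and 4.21% in the isotype control. Retnlg, which encodes a secreted resistin-like protein, reached 114 UMIs in a cell and had no UMI in 26 of 79. It belongs to the rule, so its spread among these cells is in part shaped by the rule and is given as a description. Cells rich in Retnlg were rich in calprotectin transcripts. Per 400 UMIs the Pearson correlation was 0.60 over 79 cells (Spearman 0.70), with 0.55 over 46 in the combination and 0.70 over 24 in anti-CD27. The antiviral list and the interferon-induced GTPases also went together over the 79 cells (Pearson 0.49, Spearman 0.46), with 0.58 in the combination and 0.33 in anti-CD27 (0.23 without its deepest and haemoglobin-rich barcodes). Il1b went the other way from S100a8 and S100a9 (Pearson -0.27, Spearman -0.28), with -0.25 in the combination and -0.44 in anti-CD27 (-0.62 without those 2 barcodes). As a share of the UMIs of other genes than S100a8 and S100a9, Il1b gave -0.21 (Spearman -0.18), with -0.19 in the combination and -0.37 in anti-CD27. Per 400 UMIs the antiviral list also went the other way from S100a8 and S100a9 (Pearson -0.24, Spearman -0.18), with -0.27 in the combination and -0.44 in anti-CD27 (-0.68 without the 2). As a share of the other UMIs, the list gave only -0.10 over the 79 cells (Spearman -0.06). The same measure gave -0.11 in the combination and -0.35 in anti-CD27 (-0.61 without the 2). These cells share libraries and a common total, so the correlations are given as a description. In 8 cells, 5 of them in the combination, S100a8 and S100a9 summed to fewer than 10 UMIs. These 8 cells carried 23 of the 54 UMIs of Cxcl10, a chemokine for activated T cells, and Il1b was detected in 7 of them.

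**Figure D2:**
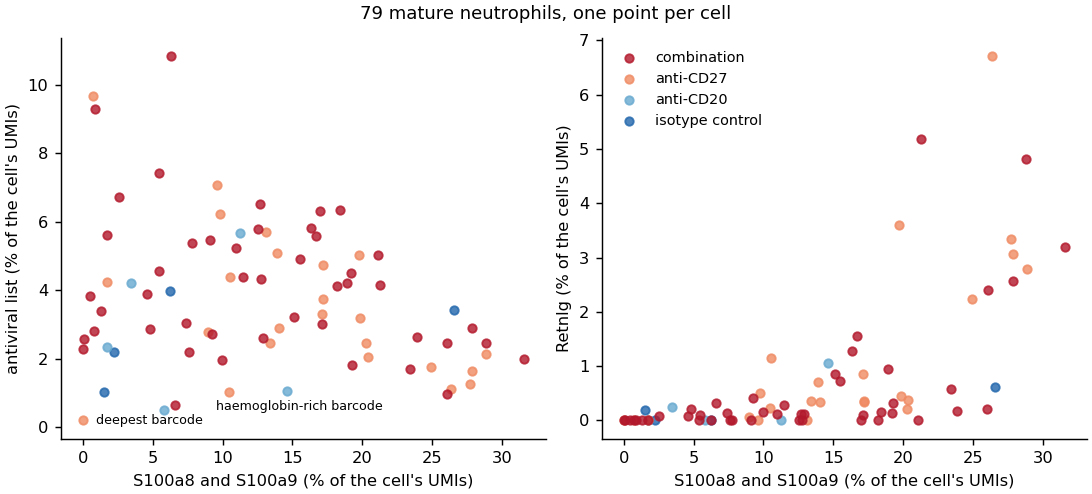
Each point is 1 of the 79 mature neutrophils, with the percentage of its UMIs from S100a8 and S100a9 on the x axis and from the antiviral list (left) or Retnlg (right) on the y axis. High Retnlg is seen in cells with much S100a8 and S100a9, antiviral genes are found along the whole axis, and the 2 labelled barcodes of anti-CD27 lie at 0.0156% (deepest) and 10.4% (haemoglobin-rich). Retnlg is a gene of the rule, which in part shapes its spread.

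The antibody to CD27 was given to 2 of the 4 libraries, and genes were compared between these and the 2 without it. The libraries without anti-CD27 held only 9 cells and 8332 UMIs, and a gene without a UMI there may still have been present at up to 360 CPM, the level of 3 counts over both libraries. Among 693 genes with at least 20 UMIs, 162 (23.4%) had both libraries with anti-CD27 above both without and past 2-fold, and 65 (9.38%) had both below. Of the 162, 82 had no UMI without anti-CD27, and for 71 of these the lower bound of the ratio was under 2-fold. Such genes reached 20 UMIs through the 2 libraries with anti-CD27 alone, which held 85007 UMIs against 8332. A UMI in both of these libraries was then enough for the order of the libraries. The 2-fold limit was passed by construction, so these genes are no support for a difference. Without the 9 barcodes that carried other markers, 146 of 543 genes were higher and 58 lower by the same rule. The interval of the pooled ratio lay above 1 for 55 of the 162. Anti-CD20 treatment differed within each pair of libraries and was not a term of the edgeR quasi-likelihood test on sums per library, so it entered the spread. The edgeR test called 0 of 284 genes at an adjusted p under 0.05 (percent called 0). It gave 59 genes at an unadjusted p under 0.05, and DESeq2 gave 29 and called 0. When the 9 barcodes with markers of other classes were left out, edgeR called 20 of 220 genes, 18 higher, with the rule genes Retnlg and BC100530 among them, and 2 lower (Wipf1 and Atxn7l3b). The 9 include the deepest barcode of the isotype control, which held 47.2% of the mature neutrophil UMIs of that library, so these calls rest on still fewer counts without anti-CD27. Unlike in the comparisons of classes, the genes of the rule stayed in this test. The calls of Retnlg and BC100530 are therefore no result, because the rule used their counts. Leaving out a library gave 17 calls without the isotype control (of 708 tested), 7 without anti-CD20 (of 711), 5 without the combination (of 69) and 1 without anti-CD27 (of 65). Fewer cells of a state and less RNA per cell cannot be told apart in such sums.

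MHC class I genes were higher together. Of 12 genes of this list with at least 20 UMIs, all 12 had both libraries with anti-CD27 above both without, 11 of them past 2-fold, and the median log2 ratio was 1.25, against -0.10 over all 693 genes. Of these 11, 6 had UMIs without anti-CD27. The other 5 had none there and reached 20 UMIs through the libraries with anti-CD27 alone. For 4 of these 5 the lower bound of the ratio was under 2-fold. An interval above 1 was found for 5 of the 11, and 23.4% of all 693 genes were higher by this rule. H2-D1, a classical class I heavy chain, had 743 and 421 UMIs in the combination and anti-CD27, against 26 and 25 in anti-CD20 and the isotype control. That was 14311 and 12724 CPM, against 6871 and 5497, and the pooled level was 2.24-fold higher (1.69 to 3.02). B2m, the shared light chain, had 478 and 268 UMIs with anti-CD27 and 18 and 10 without (2.61-fold, 1.79 to 3.96). H2-K1 had 379 and 217 against 10 and 13 (2.54-fold, 1.68 to 4.04). Psmb9, a subunit of the immunoproteasome, had 52 and 35 UMIs against 0 and 0, at least 2.84-fold higher. Without the 9 barcodes, H2-K1 (log2 fold change 1.96, adjusted p = 0.0268), H2-D1 (1.61, 0.0268) and B2m (1.53, 0.0441) passed the edgeR test, and with all 79 cells they did not. H2-D1 and H2-K1 share sequence near their 3′ ends (22.5% and 13.3% of 50-base windows occur in another gene), so their split is uncertain.

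The interferon-induced GTPases, which attack the vacuoles of intracellular microbes, were higher as well. Of 11 measured, 10 had both libraries with anti-CD27 above both without and past 2-fold, with a median log2 ratio of 1.40. Over all 693 genes 23.4% were higher by this rule. Of these 10 GTPases, only 3 had UMIs without anti-CD27. The other 7 had none there, reached 20 UMIs through the libraries with anti-CD27 alone and passed the 2-fold limit by construction. For 4 of the 7 the lower bound of the ratio was under 2-fold. An interval above 1 was found for 8 of the 10. Gbp7 had 185 and 55 UMIs in the combination and anti-CD27, against 0 and 6 in anti-CD20 and the isotype control (3.92-fold, 1.77 to 10.8), and Gbp2 had 100 and 50 against 1 and 2 (ratio 4.90, 1.65 to 24.0). Gbp5 and Ifi47 had 62 and 25, and 66 and 24, UMIs with anti-CD27 and none without, which made them at least 2.84- and 2.94-fold higher. Gbp2b, of the same family but not in the list, had 197 and 81 against 3 and 3 (4.54-fold, 2.06 to 12.5). In single cells, transcripts of the list were a median 1.06% of UMIs in the combination and 1.04% in anti-CD27, against 0.107% in anti-CD20 and 0.190% in the isotype control. Irf1, a transcription factor that interferon gamma induces, had 81 and 29 UMIs against 1 and 0 (ratio 10.8, 1.90 to 430). Ifng itself had no UMI in these cells.

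Antiviral genes were less uniform. Of 27 measured, 13 were higher by the same rule and 0 lower, with a median log2 ratio of 0.69, beside 23.4% higher over all 693 genes. Of the 13, 8 had UMIs without anti-CD27. The other 5 had none there and reached 20 UMIs through the libraries with anti-CD27 alone. For all 5 the lower bound of the ratio was under 2-fold. An interval above 1 was found for 5 of the 13. Isg15, a ubiquitin-like modifier, had 197 and 75 UMIs in the combination and anti-CD27, against 8 and 3 in anti-CD20 and the isotype control (2.42-fold, 1.33 to 4.91). Samhd1, which degrades nucleotides needed by viruses, had 232 and 94 against 5 and 6 (2.90-fold, 1.60 to 5.88). The most abundant member, Slfn4, overlapped, with 5104 and 3627 CPM in the combination and anti-CD27 and 2907 and 4617 in anti-CD20 and the isotype control. Ifi27l2a overlapped too, at 4584 and 4171 against 5550 and 4178. Among the IFITM proteins, which block viral entry, Ifitm3 had 147 and 99 UMIs against 5 and 8 (1.86-fold, 1.06 to 3.53), short of the 2-fold limit, and Ifitm1 had 51 and 104 against 0 and 1 (ratio 15.2, 2.69 to 604).

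Promoters of the interferon lists shared a sequence feature that the rule had not used. The motif searched was GAAA, any 2 bases and again GAAA, the core of the element bound by interferon regulatory factors, on both strands of the window from 250 bases before to 50 after each RefSeq gene start (GRCm38.p6). It occurred in 9 of 10 GTPase genes (90%) and 17 of 34 antiviral genes (50%) with a promoter in that table, against 1079 of 27025 of all genes (3.99%) and 53 of 511 genes with at least 20 UMIs in mature neutrophils (10.4%). Of antiviral genes with at least 20 UMIs, 10 of 22 held it (45.5%). It occurred in 4 of 15 MHC class I genes (26.7%), 0 of 6 alarmins and 0 of 4 stefins. A match is a description and not a shown binding site. The windows of Samhd1 and of Slfn4, the most abundant antiviral gene, held no match. As examples with a match, the windows of Isg15 (chr4:156200769-156201068, minus strand), Gbp2b (chr3:142594597-142594896, plus strand), Gbp2 (chr3:142620413-142620712, plus strand) and Cxcl10 (chr5:92348840-92349139, minus strand) are shown. Each is written along its gene with the matches in capitals.
Isg15: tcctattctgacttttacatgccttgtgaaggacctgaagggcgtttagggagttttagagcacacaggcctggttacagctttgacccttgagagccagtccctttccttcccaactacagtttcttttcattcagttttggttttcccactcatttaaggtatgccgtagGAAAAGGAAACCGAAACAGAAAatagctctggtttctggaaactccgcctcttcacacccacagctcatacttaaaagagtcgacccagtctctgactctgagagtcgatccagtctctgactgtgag
Gbp2b: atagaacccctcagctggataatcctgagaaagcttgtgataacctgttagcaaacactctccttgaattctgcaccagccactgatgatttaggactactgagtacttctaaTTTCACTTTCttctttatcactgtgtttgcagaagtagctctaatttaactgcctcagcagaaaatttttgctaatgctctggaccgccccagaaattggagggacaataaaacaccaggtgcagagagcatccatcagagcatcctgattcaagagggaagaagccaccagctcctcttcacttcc
Gbp2: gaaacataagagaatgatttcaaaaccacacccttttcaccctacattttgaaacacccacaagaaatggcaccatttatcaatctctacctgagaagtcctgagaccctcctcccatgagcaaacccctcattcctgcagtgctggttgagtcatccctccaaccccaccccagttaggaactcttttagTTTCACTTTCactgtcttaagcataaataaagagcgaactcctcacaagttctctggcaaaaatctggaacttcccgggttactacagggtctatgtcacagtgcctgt
Cxcl10: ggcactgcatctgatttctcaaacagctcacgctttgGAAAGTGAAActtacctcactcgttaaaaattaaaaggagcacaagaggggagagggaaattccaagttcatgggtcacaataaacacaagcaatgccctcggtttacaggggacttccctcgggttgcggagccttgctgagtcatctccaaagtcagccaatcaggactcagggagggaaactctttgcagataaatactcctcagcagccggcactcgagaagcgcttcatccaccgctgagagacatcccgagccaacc
Isg15 held 3 overlapping matches, and the other 3 windows shown held 1 each. Those of Gbp2b and Gbp2 lie on the reverse strand and read TTTCACTTTC.

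**Figure D3:**
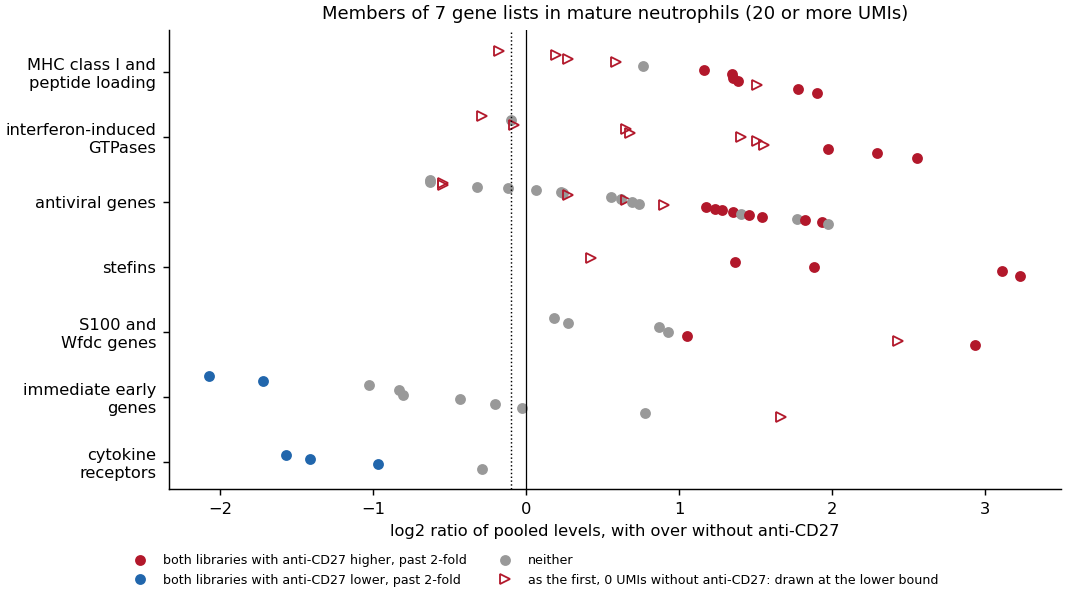
Each symbol is a gene with at least 20 UMIs, placed by its log2 ratio of the pooled level with anti-CD27 over that without, with genes at 0 UMIs without anti-CD27 drawn as open triangles at their lower bound. MHC class I, GTPases and stefins lie mostly right of the dotted median of all genes (-0.10), cytokine receptors and most immediate early genes left of it, and several triangles lie below a 2-fold ratio. Stfa2l1, BC100530, Gm5483 and Csf3r are genes of the rule.

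Among alarmin genes, 3 of 7 were higher with anti-CD27 past 2-fold and 0 lower, with a median log2 ratio of 0.93, beside 23.4% higher and 9.38% lower over all 693 genes. S100a8 was 2.07-fold higher (1.83 to 2.35) and S100a9 1.83-fold (1.63 to 2.05) in the pooled levels, the second short of the limit. Wfdc17, a small secreted protease-inhibitor-like protein, had 63 and 102 UMIs in the combination and anti-CD27 and none without, at least 5.39-fold higher. Retnlg had 410 and 356 UMIs against 12 and 8 in anti-CD20 and the isotype control (3.75-fold, 2.41 to 6.18). Of 5 stefins with at least 20 UMIs, inhibitors of cysteine proteases, Stfa2l1 (148 and 114 UMIs against 9 and 1), BC100530 (86 and 105 against 2 and 0) and Gm5483 (74 and 76 against 4 and 0) belong to the rule, as does Retnlg, so their levels are in part fixed by it and are given as a description. The 2 stefins outside the rule were Stfa2, with 26 and 62 UMIs against 1 and 0 (ratio 8.63, 1.51 to 345), and BC117090, with 19 and 22 against 0 and 0. The stefins lie in a cluster on mouse chromosome 16, and 24.2% of 3′ windows of Stfa2l1 and 31.0% of those of BC100530 occur in another gene, so reads may have been split between them.

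Some genes were found only in the 2 libraries with anti-CD27, which held most of the UMIs. Plac8, a cysteine-rich protein of myeloid and lymphoid cells, had 188 and 70 UMIs in the combination and anti-CD27 and 0 in both libraries without it, at least 8.43-fold higher. Ly6c2 had 132 and 43, and Ly6c1 89 and 30, again against 0 and 0 (at least 5.72- and 3.89-fold). Ly6c2 and Ly6c1 are near-identical Ly6C antigens, and 35.2% and 29.4% of their 3′ windows are shared. Ly6c2 is also a monocyte gene. The monocyte list of 8 genes summed to 194, 56, 1 and 5 UMIs in the combination, anti-CD27, anti-CD20 and the isotype control, mostly of Ly6c2 and Ctss. Their part in these values was not tested. Plac8 (log2 fold change 8.98, adjusted p = 0.0260), Ly6c2 (8.33, 0.0405) and Wfdc17 (8.55, 0.0441) passed the edgeR test when the 9 barcodes with B, T, macrophage or erythroid markers were left out, a set that was not chosen on monocyte genes. The fitted sizes of Plac8, Ly6c2 and Wfdc17 rest on 0 counts without anti-CD27 and are no bound.

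By the same rule, 65 of the 693 genes (9.38%) were lower with anti-CD27. Of the 162 higher genes, 80 had UMIs without anti-CD27, and the other 82 passed the 2-fold limit by construction. Of 4 receptors for colony-stimulating factors and other cytokines with at least 20 UMIs, Csf3r belongs to the rule, and of the other 3, 2 were lower (Csf2rb and Tnfrsf1a) and 0 higher, beside 9.38% lower over all genes. Csf3r, the G-CSF receptor, whose level is in part fixed by the rule, had 110 and 41 UMIs in the combination and anti-CD27 against 16 and 13 (2119 and 1239 CPM against 4228 and 2858, 0.51-fold, 0.34 to 0.79). Csf2rb, the shared chain of the GM-CSF receptor, had 20 and 4 against 3 and 4 (0.34-fold, 0.14 to 0.92). Cxcr2, also of the rule, was at 0.68-fold (0.50 to 0.94), short of the limit. Of 10 immediate early genes, which answer handling and activation within minutes, 2 were lower and 1 higher, and of 9 adhesion genes 2 were lower and 0 higher, few genes to set beside the 9.38% lower and 23.4% higher over all. Fos had 25 and 9 UMIs against 6 and 8 (0.24-fold, 0.12 to 0.48) and the transcription factor Klf6 46 and 16 against 12 and 8 (0.30-fold, 0.18 to 0.53), whereas Nfkbia, the inhibitor of NF-kB, had 73 and 24 against 0 and 0. The chromatin regulator Kmt2e (17 and 8 UMIs against 5 and 5) and the inhibitory receptor Sirpa (17 and 7 against 3 and 4) were lower as well. The NADPH oxidase, glycolysis and MHC class II lists had none past the limit in either direction.

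Other genes named by the study were sparse in this class. Fcgr4, the activating receptor for IgG2a, had 34 and 20 UMIs in the combination and anti-CD27 against 1 and 0 in anti-CD20 and the isotype control (ratio 5.29, 0.91 to 213), an interval that includes 1. It was detected in 21 of 46 cells in the combination, 12 of 24 in anti-CD27, 1 of 5 in anti-CD20 and 0 of 4 in the isotype control (interval up to 60.2%), and in 0 of 575 B cells. Thinned to 400 UMIs, the share was 23.9% in the combination and 25% in anti-CD27. The proliferation gene Mki67 had 8 and 10 UMIs against 0 and 0, with 7 of the 10 in the deepest barcode of anti-CD27. Ccl4 had 11 UMIs, all in anti-CD27, and Cxcl9 had 21, all in the combination. Ccl5 had 8 and 14 UMIs against 1 and 0. Cd274, which encodes PD-L1, had 29 and 20 against 0 and 0, at least 1.60-fold higher.

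**Figure D4:**
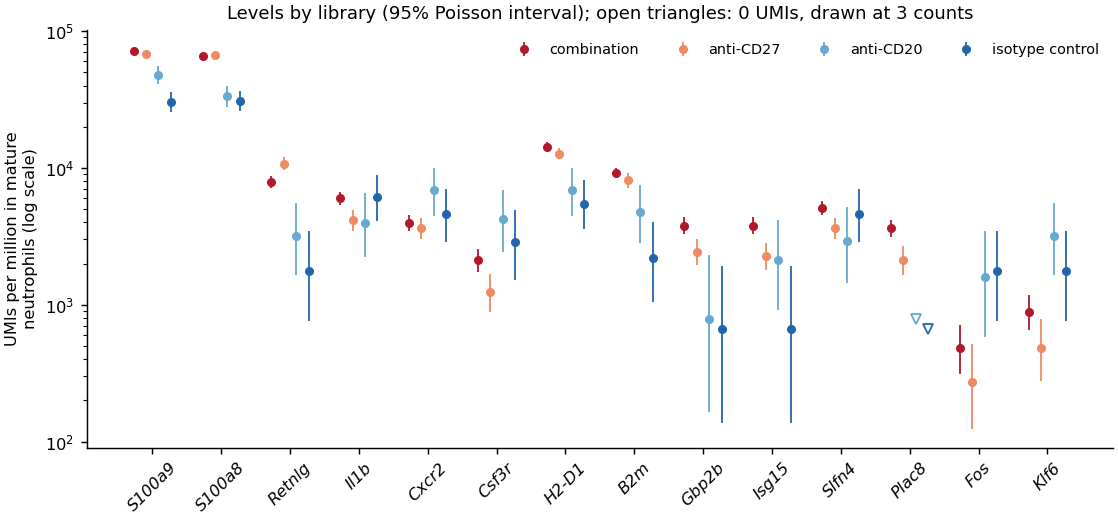
Level of 14 genes in the mature neutrophils of each library in CPM on a log scale, with 95% Poisson intervals, and open triangles at 3 counts where a library had no UMI. H2-D1, B2m, Gbp2b and Retnlg lie higher in the combination and anti-CD27, Il1b and Slfn4 overlap, and Csf3r, Fos and Klf6 are lower in both. Retnlg, Cxcr2 and Csf3r are genes of the rule, so their levels are in part fixed by it.

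The combination and anti-CD27 held enough cells for a direct ratio, although with 1 library each the intervals cover counting error only. Of 411 genes with at least 30 UMIs, 38 (9.25%) were past 2-fold higher in the combination with an interval without 1 and 38 (9.25%) past 2-fold lower. Without the deepest and the haemoglobin-rich barcode of anti-CD27, 18 of 358 (5.03%) were higher and 24 (6.7%) lower, and 24 genes had the same call in both, 16 higher and 8 lower. Irg1, now named Acod1, which makes the antimicrobial metabolite itaconate, led the higher genes with 66 UMIs in the combination against 5 in anti-CD27 (8.41-fold, 3.43 to 26.8). It was detected in 21 of 46 cells against 1 of 24, and after thinning to 400 UMIs in 30.4% against 4.17%. Of 23 antiviral genes with at least 30 UMIs 4 were higher and 0 lower, of 8 GTPases 2 were higher and 0 lower, and of 4 IFITM genes 0 were higher and 2 lower. The median log2 ratio of the antiviral list was 0.49 with all barcodes and 0.09 without the 2, and that of the GTPases was 0.51 and 0.08. Among single genes, Ifih1 had 36 against 4 UMIs, Slfn8 41 against 6, Rsad2 115 against 24 (3.05-fold, 1.95 to 4.96) and Cxcl10 47 against 7 (4.28-fold, 1.92 to 11.2). Cybb, the catalytic subunit of the NADPH oxidase, had 30 against 4 and the pore-forming Mpeg1 41 against 6. Genes lower in the combination with and without those barcodes included Stfa2 (26 against 62 UMIs, 0.27-fold, 0.16 to 0.43), Ifitm1 (51 against 104, 0.31-fold, 0.22 to 0.44) and Wfdc17 (63 against 102, 0.39-fold, 0.28 to 0.54). Trbc2 and Eef1a1 were lower only with all barcodes, and 26 of the 26 Trbc2 UMIs and 23 of the 25 Eef1a1 UMIs of anti-CD27 came from 1 barcode each. Of 10 MHC class I genes with at least 30 UMIs, 1 was higher and 0 lower in the combination, with a median log2 ratio of 0.18 with all barcodes and -0.05 without the 2.

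Mature neutrophils were compared with immature neutrophils of the same libraries, with the library as a block and the 9 genes of the rule left out. Of 208 genes tested by edgeR, 50 (24%) were higher and 51 (24.5%) lower at an adjusted p under 0.05. Scaling by library totals split the calls into 73 higher and 28 lower and moved the median log2 fold change of all genes to 0.51, against -0.15, and 78 of the 101 calls were kept, while all 101 genes kept their direction. Depth differed between the classes, with a median of 956 UMIs a mature cell against 2909 an immature cell. Of the 50 higher genes, 49 were higher within each of the 4 libraries, and of the 51 lower genes 35 were lower within each.

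Il1b led the genes higher in mature cells with a log2 fold change of 6.42 ± 0.68 (SE, adjusted p = 5.45e-18 by edgeR), with 5990, 4141, 3964 and 6157 CPM in mature cells of the combination, anti-CD27, anti-CD20 and the isotype control, against 9.19, 62.6, 0 and 89.9 in immature cells. Junb, a transcription factor of the AP-1 family, was higher by 4.58 ± 0.52, the chemokine gene Ccl6 by 4.08 ± 0.53 and the chemokine receptor gene Ccr1 by 2.88 ± 0.53. Marcks (5.18 ± 0.55), a substrate of protein kinase C, Pla2g7 (4.28 ± 0.53), which degrades platelet-activating factor, and Fgl2 (3.76 ± 0.57) followed. All 7 antiviral genes tested were higher, with a median of 1.95. Isg15 was higher by 2.78 ± 0.47 and Ifi27l2a by 3.16 ± 0.51, and Slfn4 by 1.22 ± 0.50 (adjusted p = 0.0318). Isg15 had 3794 and 2267 CPM in mature cells of the combination and anti-CD27 and 404 and 271 in immature cells of the same libraries. Of 4 immediate early genes tested, 3 were higher and 0 lower. No MHC class I gene of 6 tested was called: H2-D1 differed by 0.62 ± 0.48 (adjusted p = 0.305).

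Of 6 secondary granule genes tested, 5 were lower in mature cells, with Lcn2 at -4.62 ± 0.56 and Anxa1 at -3.54 ± 0.55, while Hp was not called (-0.36 ± 0.45). Chi3l3, a chitinase-like protein of immature granulocytes, had 0 UMIs in mature cells and 371 in immature cells, at least 51.7-fold lower, and Fcnb, a ficolin, had 0 against 255, at least 35.5-fold lower. Since Camp, Ngp and Ltf defined both classes, genes made at the same stage follow from the rule in part. Cebpe, the transcription factor of that stage, was lower (-6.07 ± 0.82) and Serpinb1a, an inhibitor of granule proteases, as well (-6.85 ± 0.76). Of 6 genes of the NADPH oxidase 4 were lower, led by Cybb (-3.99 ± 0.56). Cd177 (-3.72 ± 0.56) and Ly6g (-2.95 ± 0.54), both surface markers of neutrophils, were lower too. S100a8 (-2.34 ± 0.48) and S100a9 (-2.02 ± 0.47) were lower although they still led the mature transcriptome, and S100a6 was higher (1.89 ± 0.50). Calls were 223 of 578 tested without the isotype control, 179 of 510 without anti-CD20, 35 of 67 without anti-CD27 and 21 of 70 without the combination. With only the 2 libraries that held 10 cells of both classes, 4 of 1122 were called, all lower.

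**Figure D5:**
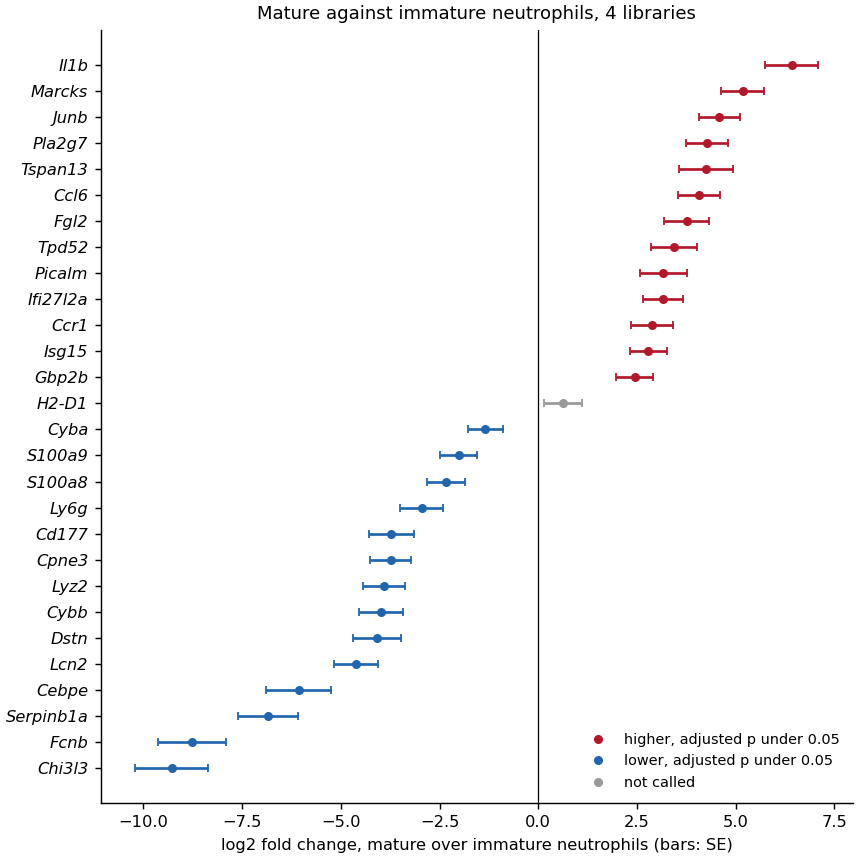
Log2 fold change of mature over immature neutrophils with its SE for the 10 largest changes each way and 8 further genes of the lists. Il1b, Marcks and Junb stand at the top (6.42, 5.18 and 4.58), H2-D1 is not called, and granule-stage genes run down to Chi3l3 and Fcnb, whose fitted sizes rest on 0 counts in mature cells.

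Set against 2 other myeloid classes of the spleen, mature neutrophils differed in genes of several lists. Against 167 barcodes with monocyte genes, 106 of 545 genes (19.4%) were higher and 121 (22.2%) lower. This class was mixed, with 3 or more T cell UMIs in 40 barcodes and B cell UMIs in 25. Without such barcodes 137 of 409 genes were called, and 122 of the 227 calls were found there in the same direction. Scaling with DESeq2 size factors gave 86 higher and 191 lower. Il1f9, an interleukin-36 cytokine, had 90 UMIs in mature neutrophils and 0 in monocyte-gene barcodes, at least 136-fold higher. S100a9 (log2 fold change 7.92 ± 0.42), Slfn4 (6.70 ± 0.65), the transcription factor Mxd1 (6.29 ± 0.61), the complement receptor C5ar1 (5.91 ± 0.61), the histamine-making enzyme Hdc (5.72 ± 0.57) and Il1b (4.85 ± 0.65) were higher. S100a4 (-5.34 ± 0.68), Crip1 (-4.35 ± 0.67) and Lgals1 (-4.02 ± 0.77) were lower, as were all 4 MHC class II genes, with Cd74 at -3.19 ± 0.68. Of 6 alarmins 4 were higher and 1 lower, of 3 chemoattractant receptors 3 were higher, and of 9 immediate early genes 8 were higher and 0 lower. Calls numbered 374 of 807 without the isotype control, 149 of 483 without anti-CD27 and 84 of 446 without the combination.

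Against 46 macrophages with C1q genes, 73 of 346 genes (21.1%) were higher in mature neutrophils and 70 (20.2%) lower. Lrg1, a leucine-rich glycoprotein of neutrophil granules, had 106 UMIs against 0, at least 46.9-fold higher. Hdc (6.90 ± 0.85) and Pglyrp1, a peptidoglycan-binding granule protein (6.31 ± 0.94), were higher as well, and 8 of 9 antiviral genes were higher, with Isg15 at 3.45 ± 0.59. Vcam1, the adhesion molecule of red pulp macrophages, had 0 UMIs against 198, at least 49.7-fold lower, and Spic, the transcription factor of those cells, was lower (-4.80 ± 0.75), as were Hmox1, which degrades haem (-4.50 ± 0.72), and Apoe (-4.37 ± 0.72). Of MHC class I genes, 1 of 10 was lower against monocyte-gene barcodes and 0 of 7 called against macrophages. Calls numbered 70 of 214 without anti-CD27 and 36 of 151 without the combination.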

How the data were processed

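Drop-seq libraries of digested spleens were sequenced for 4 treatments, 1 library each. Per the study's methods and the submitters' notes, the authors used bcl2fastq to demultiplex, STAR 2.5.0a for alignment on mm10 and Dropseq-tools for counting. The authors deposited raw UMI counts of 17252 genes in 3198 barcodes, unfiltered and not normalized. Cells of the isotype control are named PBS in that table, the only untreated name. No column was left without a sample. The study selected 800 barcodes a library, and 799 or 800 are in the table. Doublets were not removed by a caller.

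Barcodes with 300 to 3000 genes were kept, and the rule for mature neutrophils was applied to their counts. Intervals are at 95% (Clopper-Pearson, Newcombe, Poisson, exact conditional ratio) and cover counting error only. A count of 0 was given a floor of 3 counts over both libraries without anti-CD27 together (360 counts per 1000000 UMIs, CPM). Sums per library were tested with edgeR 4.0.16 (TMM factors, filterByExpr, quasi-likelihood F test, Benjamini-Hochberg adjustment, call at adjusted p under 0.05), and with DESeq2 1.42.0 as an alternative, in R 4.3.3. In the comparisons of classes, the library was the block, since both classes came from the same library. Nothing says that libraries are independent replicates of a condition, so p-values measure the spread between these libraries. The edgeR step was tested on simulated data. Promoters and gene positions came from RefSeq (GRCm38.p6) and GENCODE.

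The members and gene lists were chosen with earlier results of these data known. Genes were named when they belonged to the rule or its markers, were named by the study, were among the 10 largest ratios each way past 2-fold (30 or more UMIs, without immunoglobulin, haemoglobin, ribosomal and mitochondrial genes) or the 10 largest called changes each way between classes, were among the 6 members with the most UMIs of a list or past its call rule, or were among the 20 genes with the most UMIs. Gbp2b, Rsad2, Wipf1 and Atxn7l3b fall outside this rule and were chosen after their values were seen, and some genes that the rule names are not reported here. Alternatives were the limits on genes, the thresholds of the rule, scalings, filters on low counts, each library left out, and barcodes left out for markers of other classes. The barcodes low in S100a8 and S100a9, the 2 that stood apart in anti-CD27, the monocytes without other markers, and the missing lower limit on genes were chosen after seeing the data.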

Additional observations from a re-analysis of the deposited data

Results flagged for a closer look

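Barcodes with fewer than 300 genes, left out of the report, also met the UMI rule: 20 in the combination, 2 in anti-CD27, 5 in anti-CD20 and 5 in the isotype control. They were 5.92%, 0.694%, 1.70% and 1.09% of the barcodes under 300 genes in those libraries. Their share was 4.22 points higher in the combination than in anti-CD20, while anti-CD27 minus the isotype control gave -0.400 points. The difference between these effects was not tested.

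Il1b moved in opposite directions in the 2 pairs of libraries, by 2026 CPM in the combination minus anti-CD20 and by -2016 in anti-CD27 minus the isotype control. Ccl5 did so with -110.2 CPM in the combination minus anti-CD20 and 423 in anti-CD27 minus the isotype control, on 23 UMIs in all. The mature share of all neutrophils differed by -0.338 points in the combination minus anti-CD20 and by 2.61 points in anti-CD27 minus the isotype control. None of these 3 differences between pairs was tested, and each rests on 9 cells without anti-CD27.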

How the results depend on the processing

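The share of mature neutrophils rested on the limit on genes: with 500 to 3000 genes it was 5.05% in the combination, 2.60% in anti-CD27 and 0.262% in anti-CD20, and the intervals of anti-CD27 minus the isotype control (1.31 points) and of the combination minus anti-CD27 (2.45 points) then included 0. Among barcodes without B cell markers it was 9.02% in anti-CD27 and 3.92% in the isotype control, and the same differences, 5.10 and 2.01 points, again had intervals with 0. At 5 or more rule UMIs of 3 genes the isotype control was at 0.294%.

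The comparison with against without anti-CD27 called 62 genes with no filter on low counts, 20 without barcodes of other classes and 1 to 17 when a library was left out. Genes not overlapping and lower numbered 30 at 500 to 3000 genes. With at least 10 UMIs 376 were higher and 175 lower, and with at least 50 UMIs 65 and 13. Mature against immature neutrophils gave 191 calls with no filter, 45 at 500 to 3000 genes, 4 with the libraries of 10 or more cells and 21 to 223 when a library was left out. Against monocyte-gene barcodes these were 475, 48, 466 and 84 to 374, with 137 for monocytes without other markers. Against macrophages they were 216 with no filter, 42 at 500 to 3000 genes and 36 to 175 when a library was left out, and the setting of 10 or more cells could not be run there because anti-CD27 held 8 macrophages. The cause of these shifts was not tested, apart from the number of genes tested, which changed with the filter and the libraries.

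Genes past 2-fold between the combination and anti-CD27 numbered 76, and 46 at 2 or more rule UMIs, 40 at 5 or more UMIs of 3 genes, 35 without other-class barcodes, 42 without the 2 barcodes that stood apart and 35 without barcodes low in S100a8 and S100a9. The log2 ratio with over without anti-CD27 of Celf2 went to 0.0070 at 5 or more rule UMIs of 3 genes. That of Casp4 went to -0.0510 at 500 to 3000 genes. Ngp stood at -0.59 with no lower limit on genes and lost its call as higher. Its main value, with 0 UMIs without anti-CD27 set to 3 counts, was already -0.35. With no replicate block, the comparisons with immature neutrophils, monocyte-gene barcodes and macrophages gave 95, 245 and 132 calls, within 1.5 times of those with the block. For single genes and lists, 3845 values kept their direction and side of the threshold, 349 no longer passed it, 22 list values moved and 3 were counted as reversed. Ngp is among these 3 although its value was below 0 in both settings.

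Depth limits all statements on the libraries without anti-CD27, with 3784 and 4548 UMIs: a gene with no UMI there was not detectable below 360 CPM.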
